A study of Mus musculus with 6 samples.

Results

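The 6 genes Scn7a, Chl1, Gfap, Ncam1, L1cam and Cdh2, which mark Schwann cells around unmyelinated axons, were followed in RNA from mouse dorsal root ganglia, the clusters of sensory neurons and glia beside the spinal cord. They were chosen as markers known from Remak Schwann cells, and all 6 were found among the 36793 genes of the deposited table by their GRCm38 symbols. The mutant animals are labelled as NMDA receptor knockouts (mice 4, 5 and 6, GluN1-), and the series title places the deletion of the GluN1 gene in Schwann cells. They were compared with wild-type mice (mice 1, 2 and 3, GluN1+). All ganglia came from lumbar levels L3 and L4, and no group was described as treated or injured. Strain, sex, age and the driver of the deletion are unknown, since the sources used here do not state them.

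Remak Schwann cells are the non-myelinating Schwann cells of peripheral nerve. Each one holds several thin axons, mostly of C-fibres that carry pain, itch and temperature, in separate troughs of its membrane, and together they form a Remak bundle. Unlike myelinating Schwann cells they keep cell adhesion molecules of the immature Schwann cell, among them NCAM1, L1 and N-cadherin, and can hold the intermediate filament protein GFAP. The same adhesion molecules are also made by sensory neurons, and the ganglion holds satellite glia besides Schwann cells. A level in whole ganglion can therefore join several sources, and fewer cells of a type and less RNA per cell cannot be told apart.

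The 3 knockout libraries held 28536700 to 36249163 expected counts and the 3 wild-type libraries 28526704 to 32719517. Knockout libraries 5 and 6 differed by little more than sampling noise, with a mean chi-square of 1.15 per gene over 10258 genes. Between them 0 genes differed at a false discovery rate of 0.05. The other 14 pairs had mean chi-squares of 13.2 to 104 and 3382 or more differing genes. Libraries 5 and 6 were summed and counted as 1 sample, so n = 2 for knockout and n = 3 for wild type. Grin1, the targeted gene, was at 81.5, 116 and 116 CPM (counts scaled to normalised library size) in knockout libraries 4, 5 and 6, against 68.4, 114 and 74.4 CPM in wild-type libraries 1, 2 and 3. The groups overlapped. The title places the deletion in Schwann cells and the ganglion also holds neurons, so its level does not check the labels. The labels give the cell type as Schwann cells, but the neuronal markers Tubb3 and Snap25 stood at 2689 to 3601 and 1470 to 1832 TPM (transcript abundance scaled for length and depth) over the 6 libraries, beside 39.9 to 60.7 TPM of the glial transcription factor Sox10, so the RNA held that of neurons as well. Haemoglobin transcripts, a sign of blood, took 1.52, 0.376 and 0.374% of counts in knockout libraries 4, 5 and 6, against 0.386, 0.304 and 0.598% in wild-type libraries 1, 2 and 3, and their part in the results was not tested.

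Ncam1 and L1cam occur as forms that differ in where they are used, and the transcripts counted for them join these forms. The deposited table lists 2 transcripts for Ncam1, on chromosome 9 (minus strand, GRCm38). The shorter ends in an exon that replaces the membrane-spanning part with the signal for a lipid anchor. The longer goes on with an exon that encodes the membrane-spanning helix. Both coding stretches are shown from GENCODE vM21 (chr9:49517509-49517582 and chr9:49509705-49509912), because the Ncam1 length described later rests on which of them the reads were given to.
Ncam1 lipid-anchored form, last coding segment: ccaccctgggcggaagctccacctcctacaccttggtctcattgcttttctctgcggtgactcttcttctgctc
Ncam1 membrane-spanning form, first exon after the shared part: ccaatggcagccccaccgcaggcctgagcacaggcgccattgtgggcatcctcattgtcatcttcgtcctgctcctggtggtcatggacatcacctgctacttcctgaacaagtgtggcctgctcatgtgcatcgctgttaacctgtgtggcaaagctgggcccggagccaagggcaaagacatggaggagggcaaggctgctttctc

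L1cam, on chromosome X (minus strand), has a pair of very short exons that neurons include and that are left out in L1 of Schwann cells. They are shown in capitals, with 18 transcript bases on each side, because the coding transcript of 5113 bases holds both, that of 5126 bases only the longer and that of 4116 bases neither, while the deposited counts join all 13 transcripts of the gene. The neuronal and the glial form were therefore not separated.
L1cam exon of 12 bases (chrX:73855652-73855663): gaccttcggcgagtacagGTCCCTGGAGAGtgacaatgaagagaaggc
L1cam exon of 15 bases (chrX:73867022-73867036): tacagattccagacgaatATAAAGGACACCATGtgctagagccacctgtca

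The summed level of the 6 genes overlapped between groups, at 754 to 875 TPM in the knockout libraries and 706 to 837 TPM in the wild-type libraries. Of the 6, 5 had a positive log2 fold change of knockout over wild type and Scn7a had a negative one, with a median of 0.28 beside 0.00 over all 16809 genes tested. None of the 6 was called by the edgeR quasi-likelihood test at a false discovery rate of 0.05, a threshold passed by 0.0952% of all genes. Chl1 and Gfap, 2 of the 6, had an unadjusted p below 0.05, as had 9.14% of all genes. The groups of samples did not overlap for Chl1, Gfap and Ncam1, each higher in the knockout, which held for 11.8% of all genes, and 0 of the 6 were lower without overlap, which held for 15.5%.

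**Figure D1:**
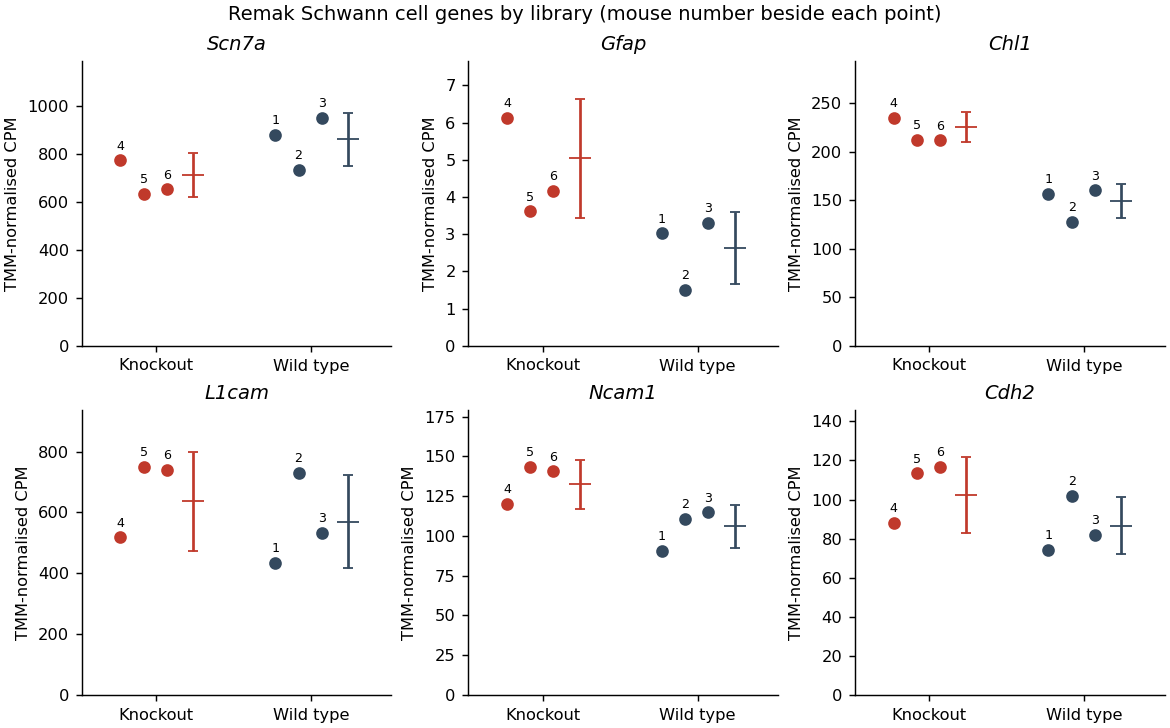
TMM-normalised CPM of each gene (y axis, linear from 0) in the 3 knockout and 3 wild-type libraries, with the mouse number beside each point. The bars to the right of the points are mean ± SD over 2 knockout samples, with libraries 5 and 6 summed, and 3 wild-type samples. The knockout points of Chl1 all lie above the wild-type points, while those of Scn7a, L1cam and Cdh2 overlap.

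Scn7a encodes Nax, a sodium channel relative known as a sensor of extracellular sodium in glia, and it lies on chromosome 2 (66673425 to 66784914, GRCm38, minus strand). It was at 773, 633 and 653 CPM in knockout libraries 4, 5 and 6, against 879, 735 and 950 CPM in wild-type libraries 1, 2 and 3. Knockout library 4 lay above wild-type library 2, so the groups overlapped. The means were 714 ± 91.7 CPM (SD, n = 2) in the knockout and 861 ± 110 CPM (SD, n = 3) in the wild type, giving a log2 fold change of -0.27 ± 0.15 (standard error, SE; Benjamini-Hochberg adjusted p = 0.616 in edgeR). It was -0.40 without knockout library 4 and -0.14 without knockout libraries 5 and 6.

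Chl1, the close homologue of L1, is an adhesion molecule of neurons and Schwann cells, on chromosome 6 (103510586 to 103750211, plus strand). It was at 235, 213 and 212 CPM in knockout libraries 4, 5 and 6, against 157, 128 and 160 CPM in wild-type libraries 1, 2 and 3. All knockout libraries lay above all wild-type libraries. The means of 226 ± 15.7 CPM (SD, n = 2) in the knockout and 149 ± 17.8 CPM (SD, n = 3) in the wild type were 1.51-fold apart, or 0.60 ± 0.13 (SE) on the log2 scale. The difference did not pass in edgeR (unadjusted p = 0.0034, adjusted p = 0.282), and it passed in DESeq2 on the same samples (adjusted p = 0.0252), where 1.52% of all genes were called. Over all alternatives the adjusted p of Chl1 ran from 0.0252 to 0.68 and its log2 fold change from 0.50 to 0.70. With the 6 libraries counted separately the edgeR adjusted p was 0.0661, and 0.871% of all genes were called.

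The 9 genes known from injured sensory neurons, fixed as a list with earlier results of these data known, all had positive values, and 5 were called. Their summed level was 930 to 951 TPM in the knockout libraries, against 402 to 442 TPM in the wild-type libraries. Among them Atf3, a stress-induced transcription factor, had a log2 fold change of 2.88 and Sprr1a, a protein of regenerating neurons, one of 6.81. The part of injured neurons in the Chl1 level was not tested.

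Gfap, the glial fibrillary acidic protein, lies on chromosome 11 (102887336 to 102900912, minus strand). It had 180, 126 and 133 counts in knockout libraries 4, 5 and 6, against 101, 48 and 97 in wild-type libraries 1, 2 and 3. On the CPM scale these were 6.13, 3.62 and 4.16 in the knockout, against 3.02, 1.51 and 3.31 in the wild type. All knockout values lay above all wild-type values, but knockout library 5 stood only just above wild-type library 3. The means were 5.04 ± 1.59 CPM (SD, n = 2) in the knockout and 2.63 ± 0.973 CPM (SD, n = 3) in the wild type. On the log2 scale they differed by 0.93 ± 0.36 (SE; edgeR adjusted p = 0.523). The difference was 0.58 without knockout library 4. Gfap was the least abundant of the 6. The 8 satellite glia genes described below were all positive, with a median of 0.36 and 0 called. The part of satellite glia in the Gfap level was not tested.

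Ncam1 (chromosome 9, 49502136 to 49798925) was at 120, 143 and 141 CPM in knockout libraries 4, 5 and 6, against 90.4, 111 and 115 CPM in wild-type libraries 1, 2 and 3. The lowest knockout and the highest wild-type library were close. The means were 132 ± 15.7 CPM (SD, n = 2) in the knockout and 106 ± 13.4 CPM (SD, n = 3) in the wild type, a log2 difference of 0.32 ± 0.15 (SE; edgeR adjusted p = 0.573) that was 0.19 without knockout libraries 5 and 6. Part of its expected counts were not whole, so RSEM shared some of its reads with transcripts of other genes. Counts that were not whole also occurred for Scn7a and L1cam.

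L1cam, the adhesion molecule L1 that Remak Schwann cells and their axons both carry, lies on chromosome X from 73853778 to 73896105. It was at 518, 749 and 739 CPM in knockout libraries 4, 5 and 6, against 435, 729 and 532 CPM in wild-type libraries 1, 2 and 3. The spread within each group was larger than the difference between them. Its log2 fold change was 0.16 ± 0.25 (SE; edgeR adjusted p = 0.852), and it was -0.13 without knockout libraries 5 and 6. Its locus overlaps Arhgap4 on the same strand and Avpr2 on the opposite strand, which averaged 149 and 11.2 expected counts per library, few beside the 14531 to 26108 counts of L1cam.

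Cdh2 encodes N-cadherin, which joins immature Schwann cells to each other and to axons. It was at 88.1, 113 and 117 CPM in knockout libraries 4, 5 and 6, against 74.3, 102 and 82 CPM in wild-type libraries 1, 2 and 3. Wild-type library 2 lay above knockout library 4. Knockout over wild type gave 0.24 ± 0.18 (log2, SE; edgeR adjusted p = 0.701). The difference was 0.42 without knockout library 4, 0.03 without knockout libraries 5 and 6 and 0.38 without wild-type library 2.

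**Figure D2:**
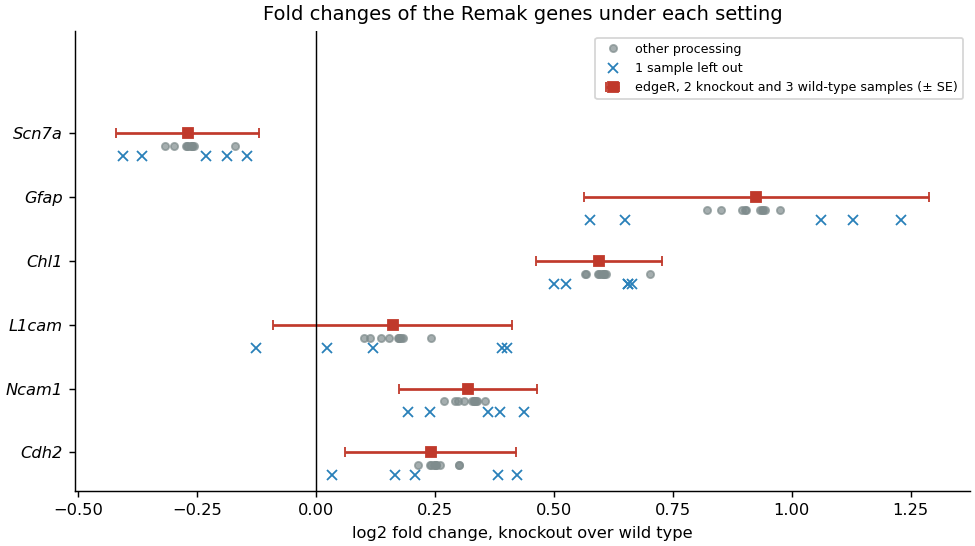
Log2 fold change of knockout over wild type (x axis) for each gene under the edgeR test (square, ± standard error), under other processing (dots) and with 1 sample left out (crosses). Scn7a stayed below 0 and Chl1, Gfap, Ncam1 and Cdh2 above 0 under every setting drawn, while L1cam crossed 0 without knockout libraries 5 and 6.

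Levels per length were compared on the TPM scale. L1cam came first, at 378 ± 81.9 TPM in the knockout (SD, n = 2) and 354 ± 81.4 TPM in the wild type (SD, n = 3), followed by Scn7a at 209 ± 20.1 and 254 ± 35.7 TPM and Ncam1 at 104 ± 13.8 and 84.7 ± 10.8 TPM. L1cam and Scn7a did not overlap in the knockout libraries and overlapped narrowly in the wild-type libraries. The order of Chl1 and Cdh2 differed between the groups, as Chl1 was above Cdh2 in the knockout at 62.6 ± 2.33 TPM and below it in the wild type at 41.7 ± 5.5 TPM, while Cdh2 was at 55.3 ± 12.2 TPM in the knockout and 46.5 ± 6.64 TPM in the wild type. These neighbours overlapped in both groups. Gfap was last, at 4.18 ± 1.19 TPM in the knockout and 2.2 ± 0.837 TPM in the wild type.

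The libraries of each group differed among themselves in a way that divided the 6 genes. Knockout libraries 5 and 6, set beside knockout library 4, and wild-type library 2, set beside wild-type libraries 1 and 3, were higher in L1cam and Cdh2 and lower in Scn7a, Chl1 and Gfap. The neuronal nuclear protein gene Rbfox3 was also higher in those libraries, at 96.1, 188 and 191 CPM in knockout libraries 4, 5 and 6 and 96.5, 185 and 110 CPM in wild-type libraries 1, 2 and 3. The summed level of 8 neuronal markers, none of them at 0, was 15310 to 17540 TPM in the knockout libraries and 13020 to 16030 TPM in the wild-type libraries. Of these markers, Tubb3, Snap25, Uchl1 and Nefl were also higher in those libraries, Syt1 only in the knockout ones, and Elavl4 and Stmn2 were lower. Elavl4 was at 370, 353 and 364 CPM in knockout libraries 4, 5 and 6, and 412, 378 and 412 CPM in wild-type libraries 1, 2 and 3. The transcripts of Scn7a and Chl1 have 40.2 and 39.9% G and C, those of Cdh2 45.1%, and those of Ncam1, L1cam and Gfap 53.1, 53.3 and 53.9%. With the GC trend between libraries removed, the log2 fold change was -0.17 for Scn7a and 0.70 for Chl1 (edgeR adjusted p = 0.58 and 0.0538). The summed level of 8 fibroblast markers, none of them at 0, was also lower in knockout libraries 5 and 6 than in 4, and in wild-type library 2 than in 1 and 3, at 3003, 2310 and 2268 TPM in knockout libraries 4, 5 and 6, against 3282, 2437 and 3099 TPM in wild-type libraries 1, 2 and 3, and 0 of the 8 were called. Apod, at 1658 to 2246 TPM in the knockout libraries and 1783 to 2385 TPM in the wild-type libraries, made up most of that sum. Apod, Dcn, Lum, Pdgfra and Col3a1 were lower in those libraries, Col1a2 was higher in them, and Col1a1 and Pi16 followed neither order. Col1a2 was at 204, 252 and 248 CPM in knockout libraries 4, 5 and 6, and 150.5, 179 and 177 CPM in wild-type libraries 1, 2 and 3. The 8 were divided in direction, 4 positive and 4 negative, and the collagen genes Col1a1, Col3a1 and Col1a2 were at 0.61, 0.63 and 0.43, each without overlap between groups (edgeR adjusted p = 0.248, 0.299 and 0.453), while Dcn was at -0.47 with overlap. The part of neuronal content, fibroblast content or base composition in these levels was not tested.

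Scn7a and Chl1 shared this pattern within the groups while their group means differed in opposite directions. Chl1 stood at 0.288, 0.318 and 0.307 TPM per TPM of Scn7a in knockout libraries 4, 5 and 6, against 0.169, 0.165 and 0.16 in wild-type libraries 1, 2 and 3. The ratio was nearly the same within each group and its groups lay far apart, with a difference of 0.87 on the log2 scale beside SDs of 0.08 in the knockout (n = 2) and 0.04 in the wild type (n = 3). Both genes have a single transcript in the table and like GC content. This ratio was singled out after the values of all 15 pairs were seen, and no test is given for it. Of the 15 pairs 3 did not overlap between groups, and each had Scn7a in it, with Chl1, Gfap or Ncam1 higher relative to Scn7a in the knockout. The ratio to Scn7a was higher in the knockout without overlap for 26.0% of all genes, and for 3 of the 5 other members.

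**Figure D3:**
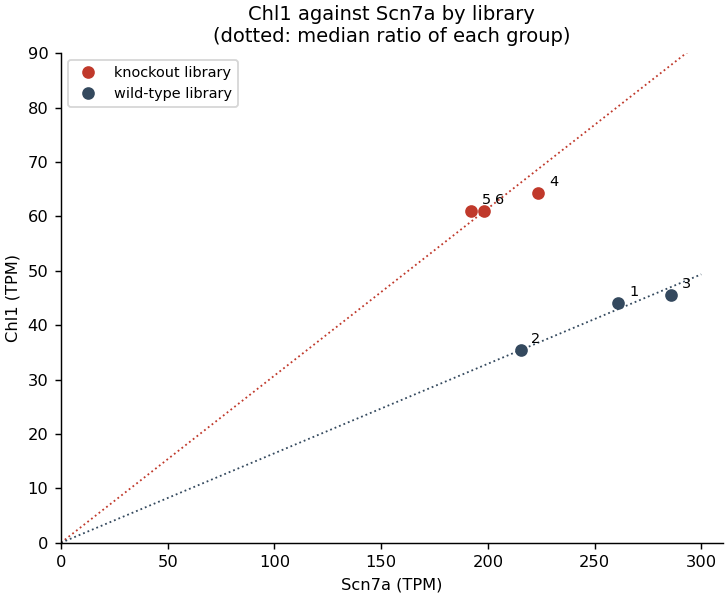
Chl1 (y axis, TPM) against Scn7a (x axis, TPM) in each library, with the mouse number beside each point and a dotted line at the median ratio of each group. The knockout libraries lie along a ratio of about 0.307 and the wild-type libraries along 0.165.

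The region around the start of each of the pair was read from RefSeq promoters (GRCm38.p6, 250 bases before to 50 after the start). They are shown for the pair whose ratio is described above, one of the 3 pairs without overlap. Capitals mark a match to the SOX motif ACAAAG on either strand, which is present in 18.7% of 32851 promoters of the same length. Chl1 held 1 match and Scn7a 0. The AP-1 motif TGANTCA (7.81% of promoters) and the TATA motif TATAAA (13.6%), searched on both strands, had 0 matches in both. A match is a description of letters, not a shown binding site.
Chl1 promoter (chr6:103510626-103510925, plus strand): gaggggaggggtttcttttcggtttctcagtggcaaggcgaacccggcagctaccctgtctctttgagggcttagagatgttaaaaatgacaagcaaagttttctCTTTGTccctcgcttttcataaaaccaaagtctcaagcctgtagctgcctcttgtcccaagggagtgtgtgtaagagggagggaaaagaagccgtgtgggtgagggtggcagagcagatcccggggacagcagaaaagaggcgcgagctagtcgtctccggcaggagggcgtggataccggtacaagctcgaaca
Scn7a promoter (chr2:66784861-66785160, minus strand): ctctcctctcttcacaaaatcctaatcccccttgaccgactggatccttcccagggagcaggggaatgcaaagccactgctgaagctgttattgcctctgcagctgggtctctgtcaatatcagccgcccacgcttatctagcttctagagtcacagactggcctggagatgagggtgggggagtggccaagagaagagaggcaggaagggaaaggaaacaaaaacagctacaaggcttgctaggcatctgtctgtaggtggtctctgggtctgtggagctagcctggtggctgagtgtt

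Other genes of the Schwann lineage were set beside the 6. The 8 genes used by Schwann cells and satellite glia in common, among them Sox10, S100b and the neuregulin receptor gene Erbb3, all had positive log2 fold changes, with a median of 0.34, and 0 were called. Their summed level was 3621 to 4369 TPM in the knockout libraries and 2871 to 3446 TPM in the wild-type libraries. Erbb3 had 0.48 ± 0.13 (SE; edgeR adjusted p = 0.364). The 10 myelin genes were all positive with a median of 0.35, and 8 satellite glia genes with 0.36, where the potassium channel gene Kcnj10 had 0.61 (edgeR adjusted p = 0.258), with 0 called in either list. Kcnj10 passed in DESeq2 (adjusted p = 0.00745) and with the 6 libraries counted separately (adjusted p = 0.0499). Of 9 genes known from repair Schwann cells after nerve injury 6 were measured, all positive with a median of 0.54 and 0 called. Their summed level was 65.9 to 112 TPM in the knockout libraries and 45.5 to 73.9 TPM in the wild-type libraries. Jun, which is also on the list of genes known from injured sensory neurons, made up most of that sum. It was at 44.8 to 86 TPM in the knockout libraries and 30.2 to 53.9 TPM in the wild-type libraries, with overlap. The 8 macrophage markers had a median of -0.02 with 0 called, and the 6 endothelial markers 0.39 with 0 called.

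Relative to the mean log2 CPM of the 8 lineage genes, Scn7a was 0.59 lower in the knockout, at 2.11 ± 0.24 (SD, n = 2) against 2.7 ± 0.28 (SD, n = 3) in the wild type, and its groups did not overlap. The same held with satellite glia or myelin genes as the yardstick, with differences of -0.66 and -0.64. This was shared by many genes, since 49.2% of all genes were lower in the knockout without overlap relative to the same 8 genes. The other 5 members overlapped between groups on this scale, and the difference was 0.28 for Chl1, 0.66 for Gfap, -0.0021 for Ncam1, -0.15 for L1cam and -0.08 for Cdh2.

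**Figure D4:**
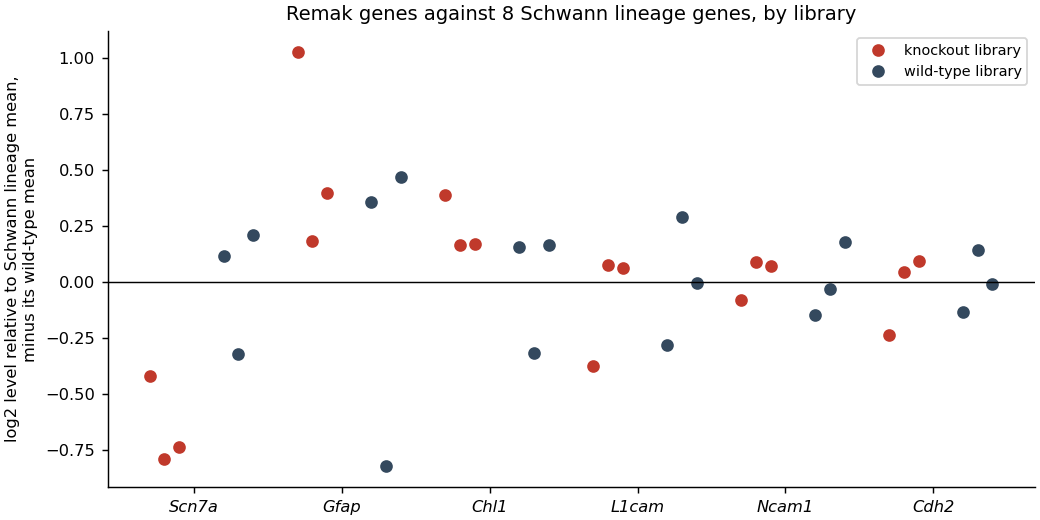
Log2 CPM of each gene minus the mean log2 CPM of 8 Schwann lineage genes in the same library, drawn relative to the wild-type mean of that gene (y axis, log2 units). Knockout libraries 4, 5 and 6 are on the left and wild-type libraries 1, 2 and 3 on the right of each gene. Only the Scn7a points of the knockout all lie below those of the wild type.

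Of 8 other genes known from non-myelinating or immature Schwann cells, 4 had positive and 4 negative values, with a median of 0.01 and 0 called. Ngfr, the low-affinity neurotrophin receptor, was at 573, 826 and 818 CPM in knockout libraries 4, 5 and 6, against 382, 685 and 499 CPM in wild-type libraries 1, 2 and 3. Within each group it followed the order of L1cam. Its groups overlapped, at 0.42 ± 0.27 (log2, SE; edgeR adjusted p = 0.66). The value was 0.66 without knockout library 4 and 0.13 without knockout libraries 5 and 6. It was 0.26 without wild-type library 1 and 0.67 without wild-type library 2. Cadm1, a nectin-like adhesion molecule, was at 318, 329 and 323 CPM in the knockout libraries, against 383, 381 and 403 CPM in the wild-type libraries. Its groups did not overlap, at -0.27 ± 0.10 (SE) (adjusted p = 0.499). Gfra3, the artemin receptor, had 0.34 and Adgrg6, a receptor needed for Schwann cell maturation, 0.23. Both were higher in the knockout without overlap (edgeR adjusted p = 0.537 and 0.579), as were 11.8% of all genes, while 15.5% were lower without overlap. Sox2, a transcription factor of immature Schwann cells, had -0.03, a sign that turned with 3 samples left out in turn and with the 6 libraries counted separately.

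The partners of the 6 genes were counted by role, and 0 of them were called. Among 16 relatives, co-receptors, ankyrins and modifying enzymes of NCAM1, L1 and CHL1, 14 were positive with a median of 0.22. The highest was St8sia2, which builds polysialic acid on NCAM1, at 0.83 ± 0.27 (SE) and a mean of only 1.6 CPM in the knockout and 0.903 CPM in the wild type. Gfra1, a receptor that also binds NCAM1, had 0.28 and Nrp2 0.44, which for Nrp2 became 0.68 without knockout library 4 and 0.15 without knockout libraries 5 and 6, while the homologues Nrcam and Ncam2 had 0.13 and 0.08, which without wild-type library 2 became 0.08 for Nrcam and -0.11 for Ncam2. Of 10 catenins and other cadherins 6 were positive and 4 negative. Cdh11, a cadherin of mesenchymal cells, had the lowest value of them at -0.47 ± 0.10 (SE) (edgeR adjusted p = 0.282) and passed in DESeq2 (adjusted p = 0.0264). The catenin gene Ctnna2 had -0.21 and the cadherin gene Cdh6 0.35 (edgeR adjusted p = 0.574 for both). Cdh11 and Ctnna2 were lower in the knockout without overlap, as were 15.5% of all genes. Cdh6 was higher without overlap, as were 11.8%.

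Of 8 filament and cytoskeleton genes beside Gfap 7 were positive. Vim, vimentin, which assembles with GFAP, had 0.43 ± 0.13 (SE) (edgeR adjusted p = 0.407), Cryab 0.28 and Nes, nestin, 0.21. Without knockout library 4 these were 0.25 for Vim, 0.10 for Cryab and 0.03 for Nes, and without knockout libraries 5 and 6 Cryab was at 0.44 and Nes at 0.37. Nes was at 0.34 without wild-type library 2. Scn3b, a sodium channel beta subunit of neurons, had -0.55 ± 0.10 (SE) (edgeR adjusted p = 0.222) and passed in DESeq2 (adjusted p = 6.5e-04) and with the 6 libraries counted separately (adjusted p = 0.0248). Axons of C-fibres are what Remak cells hold, and genes of small sensory neurons were read for that reason. Of 8 such genes 6 were negative, as were 8374 of all 16809 genes tested, and 1 was called. This was Th, the enzyme of catecholamine synthesis in low-threshold C-fibres, which fell by 1.49 on the log2 scale (edgeR adjusted p = 0.0251). The call of Th was lost without wild-type library 3, without knockout library 4 and without knockout libraries 5 and 6 (adjusted p = 0.108, 0.162 and 0.125). The summed level of these 8 was 3850 to 3976 TPM in the knockout libraries and 4038 to 4354 TPM in the wild-type libraries. Calca made up most of that sum, at 2452 to 2547 TPM in the knockout libraries and 2295 to 2665 TPM in the wild-type libraries. A link between these neuronal genes and the Remak genes was not tested.

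The length that RSEM gives each gene is the mean of its transcripts weighted by their abundance, and it was read as a second measure in the 4 members with several transcripts. For Ncam1 it was 2755, 2835 and 2815 bases in knockout libraries 4, 5 and 6, against 2753, 2775 and 2744 bases in wild-type libraries 1, 2 and 3. Knockout libraries 5 and 6 were the longest and library 4 lay within the wild-type range. If both transcripts had the GENCODE vM21 lengths of 2567 and 3088 bases, the membrane-spanning one made up 36, 51.4 and 47.6% of Ncam1 transcripts in the knockout libraries, against 35.8, 39.9 and 34% in the wild-type libraries. The difference of 6.2 percentage points was within the spread between samples (exact permutation test, two-sided, p = 0.4, n = 2 and 3, where 10 arrangements allow no p under 0.1). This assumption could not be checked for Ncam1 itself, since the table's annotation differs from vM21 elsewhere: 73.3% of 22210 genes with a single transcript had the same length in both, and Chl1 did not (7751 bases in the table).

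**Figure D5:**
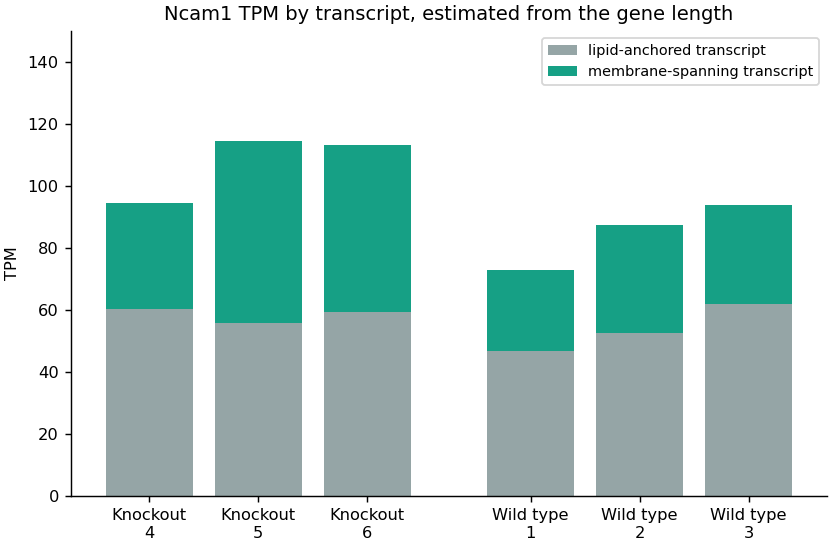
TPM of Ncam1 in each library (y axis, from 0), with knockout libraries left and wild-type libraries right. Each bar is divided between its transcripts by the deposited gene length under the GENCODE lengths. The lipid-anchored part lies between 46.8 and 62 TPM in all libraries, and the membrane-spanning part is highest in knockout libraries 5 and 6, at 58.8 and 53.9 TPM.

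For L1cam the length was 3479, 3816 and 3869 bases in knockout libraries 4, 5 and 6, against 3372, 3573 and 3553 bases in wild-type libraries 1, 2 and 3, a difference within the spread (exact permutation test, two-sided, p = 0.5). All values lay below the 4116 bases of the shortest of the 3 long coding transcripts, and the other transcripts of the gene are at most 1351 bases long in GENCODE vM21. For Cdh2 the length was 4035 to 4052 bases in the knockout and 4011 to 4107 bases in the wild type (exact permutation p = 0.7). For Gfap it was 2640 to 2641 bases in the knockout libraries and 2641 to 2646 bases in the wild-type libraries (exact permutation p = 0.2).

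The genes nearest to each member in pattern were those with the smallest root mean square difference of centred log2 CPM over the 5 samples, among 9786 other named genes (9787 for Gfap) with a mean of at least 10 CPM. For Scn7a these were Smoc2, Pdgfra and Zfp7, with differences of 0.0244 to 0.0351 log2 units. For Chl1 they were Itgb3, Nwd1 and Mmp16, at 0.049 to 0.0604. For Ncam1 they were Rbm14, Htr1d and Abcc4, and for L1cam Slc38a10, Amer3 and Adra2c, at 0.0163 to 0.0247. Cdh2 was nearest to Selenon, Inpp5e and Fam171a1, at 0.015 to 0.0213. No gene came as near to Gfap, whose nearest, Xlr3b, Mmp16 and F13a1, lay 0.18 to 0.23 log2 units away. With 5 samples and this many genes, a small difference is no sign of a link.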

How the data were processed

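RNA was sequenced from dorsal root ganglia of 6 mice with a stranded mRNA kit, per the labels' protocols. Trimmomatic 0.38, STAR 2.6.0a and RSEM 1.3.0 on GRCm38 are named in the submitters' processing notes. Neither the annotation release nor strand handling is given in the sources used here. Deposited by the authors were expected counts (estimated, not normalized), TPM, FPKM and the RSEM length and effective length per gene and library, per the file headers. The deposited FPKM values entered no test. TPM compares levels per length.

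Symbols and positions came from GENCODE vM21 for 35243 of 36793 identifiers. Expected counts were rounded, filtered with filterByExpr (16809 genes), scaled by TMM and tested by quasi-likelihood in edgeR 4.0.16 under R 4.3.3, genotype as the only term, two-sided, with Benjamini-Hochberg adjustment over all genes. Values per library are normalised over 6 libraries, and means and SDs over 5 samples. An SE is the size of the log2 fold change over the root of its F statistic. The fit was tested on simulated data. DESeq2 1.42.0, limma 3.58.1, other scalings, no filter, a GC trend removed by lowess and samples left out were alternatives, and the log2(TPM + 0.1) scale used limma. The members and all lists were chosen with earlier results of these data known. List genes were named by a rule: genes called, the 3 with the smallest p, and the first 2 of each list, of which those bearing on the members are given and some are not reported here. Ratios between members, Snap25 and Rbfox3 were chosen after their values were seen. Apart from mouse numbers, nothing describes the replicates, so p-values measure only the variation among these samples.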

Additional observations from a re-analysis of the deposited data

How the results depend on the processing

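No paired analysis was possible because knockout and wild-type animals carry different numbers. Over 15 alternatives for each of the 6 Remak genes, 88 of the values kept direction and side of the threshold. The exceptions were Chl1, called in DESeq2 with a log2 fold change of 0.60, and L1cam, which ran from -0.13 (without knockout libraries 5 and 6) to 0.40 (without knockout 4) with samples left out. The count of 16 changed genes became 144 with 6 libraries as separate samples, 81 with no filter and 255 in DESeq2, and 7 to 14 with samples left out, at 7 without knockout 4, 8 without wild type 2 and 10 without wild type 3. The cause was not tested, except that separate libraries count the near-identical pair as different animals. Of the other named genes, Sox2 turned to 0.017 with 6 libraries and ran from -0.16 to 0.12 with 1 library left out (-0.19 without knockout 5 and 6), Fabp7, a satellite glia gene, from -0.14 to 0.22 (0.26 without knockout 5 and 6) and Ncam2 from -0.11 to 0.27. Cdh11, Kcnj10, Scn3b and Syt1 were called in DESeq2, and all but Cdh11 also with 6 libraries. Th kept its sign and lost the call without wild type 3, without knockout 4 and without knockout 5 and 6. The log2 ratio of Chl1 to Scn7a, knockout minus wild type, stayed between 0.81 and 0.93. Leaving out a knockout sample leaves 1, whose variation is taken to equal that of the wild type. Counts were lowest for Gfap, at 48 to 180 per library.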
